A study of Mus musculus with 12 samples.

Results

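Glycolysis splits glucose into pyruvate in the cytosol, and several of its steps are run by isozymes, enzymes with the same reaction that are coded by different genes. The 9 genes described here code for such isozymes at 5 steps, namely Pfkm and Pfkl (the muscle and liver subunits of phosphofructokinase, which commits sugar to the pathway), Aldoa (the muscle aldolase, which cleaves fructose 1,6-bisphosphate), Pgam2 and Pgam1 (the muscle and the widespread phosphoglycerate mutase), Eno3 and Eno1 (the muscle and the widespread enolase), and Ldhb and Ldha (the H and M subunits of lactate dehydrogenase, which interconverts pyruvate and lactate). They were chosen by name, as isozymes known to differ between muscle and other tissues, and with earlier results of these data known. A difference between hearts and kidneys in these genes is therefore no independent test of the choice. Of the 9 genes, 8 had a probe under their name in the platform annotation, with 12 probes in all, and each of the 12 passed the detection filter, among 19780 probes kept of 45281. No probe carries the name Eno1 in the annotation used, so Eno1 was not analysed here.

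Illumina bead arrays were run on total RNA of hearts and kidneys from C57BL/6 mice aged 12 months, as 12 arrays in 4 groups of 3. KO/HT are hearts and KO/KID kidneys of mice that lack PAI-1 in all cells, with the coding region deleted, and WT/HT and WT/KID are the same organs of wildtype mice. The question of the study was why the hearts of aged knockout mice become fibrotic and the kidneys do not. A level below is the log2 of a quantile normalized probe signal, and a gene is represented by its brightest kept probe unless said otherwise. Probes differ in brightness for reasons other than RNA, so levels are compared between groups for the same probe only. Differences were tested with limma, and a probe was called at a Benjamini-Hochberg adjusted p under 0.05 over all kept probes. In RNA from a whole organ, fewer cells of a type and less RNA per cell cannot be told apart.

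The organs carried their own markers. All 6 heart muscle genes measured (among them Actc1, Myl2 and Myh6) were detected in all hearts and in no kidney. All 7 tubule genes (among them Miox, Umod and Aqp2) were detected in all kidneys. Slc12a1 and Aqp2 were detected by their brightest probe in no heart, but the other tubule genes were detected in some hearts. Lrp2 was detected in 3 KO/HT and 2 WT/HT arrays, and Slc34a1 in 2 and 2. Miox was detected in 1 and 2 of them, and Umod and Kap each in 1 and 1. A dimmer Slc12a1 probe was detected in 1 KO/HT and 2 WT/HT arrays. The genotype was not checked on the arrays here. Over the kept probes, the KO/HT arrays correlated with each other at r = 0.986 to 0.992, against 0.995 to 0.996 among WT/HT arrays, and KO/HT replicate 3 stood apart, with no r above 0.989 to any other heart. Xist, expressed from the inactive X chromosome, was detected in KO/HT replicates 2 and 3, in all WT/HT arrays and in no kidney, and the Y-linked Eif2s3y in all 6 kidneys and in 1 heart, KO/HT replicate 1. Sex as read from these transcripts thus runs along with organ, and the differences between knockout organs are also given below with KO/HT replicate 1 as the only knockout heart.

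In skeletal muscle, muscle isozymes are known to be switched on with the muscle programme, through factors such as MEF2 and the myogenic basic helix-loop-helix proteins. Widespread glycolytic genes are known as targets of hypoxia-inducible factor, MYC and SP1. The RefSeq promoters of 4 members (GRCm38.p6, 250 bases before to 50 after the start of the gene, on the strand of the gene) are shown because they stand for the contrast measured below, Pgam2 and Eno3 for the isozymes high in hearts, and Ldha and Pgam1 for those that were not. The Pgam2 promoter lies at chr11:5803747-5804046 on the minus strand and the others on the plus strand, Eno3 at chr11:70656926-70657225, Ldha at chr7:46845554-46845853 and Pgam1 at chr19:41911621-41911920. Capitals mark CAGCTG and the MEF2 consensus in Pgam2, CAGCTG in Eno3, and ACGTG on either strand in Ldha and Pgam1.
Pgam2 promoter: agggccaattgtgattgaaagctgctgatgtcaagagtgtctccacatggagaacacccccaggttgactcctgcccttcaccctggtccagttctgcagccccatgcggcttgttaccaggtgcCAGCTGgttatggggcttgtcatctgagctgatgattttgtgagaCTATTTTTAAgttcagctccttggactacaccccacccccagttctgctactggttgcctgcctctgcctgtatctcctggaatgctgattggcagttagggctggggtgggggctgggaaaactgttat
Eno3 promoter: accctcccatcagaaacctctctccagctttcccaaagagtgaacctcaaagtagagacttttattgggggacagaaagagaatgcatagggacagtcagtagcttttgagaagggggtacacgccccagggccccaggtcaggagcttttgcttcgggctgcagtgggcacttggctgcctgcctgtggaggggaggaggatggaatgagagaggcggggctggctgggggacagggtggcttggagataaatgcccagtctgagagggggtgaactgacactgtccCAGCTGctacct
Ldha promoter: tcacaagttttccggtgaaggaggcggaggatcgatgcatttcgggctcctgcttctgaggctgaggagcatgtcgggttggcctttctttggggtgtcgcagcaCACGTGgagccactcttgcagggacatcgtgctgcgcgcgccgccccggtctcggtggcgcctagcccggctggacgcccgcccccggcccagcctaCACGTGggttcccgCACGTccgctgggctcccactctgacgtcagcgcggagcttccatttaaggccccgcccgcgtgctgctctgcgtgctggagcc
Pgam1 promoter: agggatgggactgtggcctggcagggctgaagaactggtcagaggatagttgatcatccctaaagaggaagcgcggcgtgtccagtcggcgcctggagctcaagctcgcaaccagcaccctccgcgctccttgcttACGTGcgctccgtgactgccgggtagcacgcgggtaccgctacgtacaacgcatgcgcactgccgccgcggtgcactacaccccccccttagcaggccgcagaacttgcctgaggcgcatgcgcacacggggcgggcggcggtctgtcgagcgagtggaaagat

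Motifs were searched on both strands of all 32851 RefSeq promoters of the same length. CAGCTG, an E-box bound by the myogenic factors of skeletal muscle, is in 16.3% of them. Among the members it is in Pgam2 (first base -125 from the start of the gene), Eno3 (first base 39) and 1 of 3 Aldoa promoters. The MEF2 consensus is in 3.19% of promoters and, among the members, only in that of Pgam2, with its first base at -80. ACGTG, the core of the hypoxia response element, is in 19.6% of promoters, in that of Pgam1 and in 1 of 2 Ldha promoters, the one shown, where 2 of the 3 capital runs are the palindrome CACGTG (in 7.15% of promoters), which contains ACGTG. It is also in 2 of 3 Aldoa and 2 of 4 Pfkm promoters. None of the 4 Pfkm promoters holds CAGCTG or the MEF2 consensus, although Pfkm, too, was high in hearts, so these motifs do not cleanly split the members either. GGGCGG, the GC box, is in 35.7% of promoters and in the Pfkl promoter, the Pgam1 promoter, 1 of 2 Ldha, 2 of 3 Aldoa and 2 of 3 Eno1 promoters, but not in those of Pgam2, Eno3, Pfkm and Ldhb, so that muscle and widespread isozymes are not cleanly split by it. A match is a run of letters and does not show that a factor binds there. Whether the factors named are expressed in these hearts and kidneys was not examined here.

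Pfkm, Pgam2 and Eno3, the muscle isozymes of 3 steps, had much higher levels in hearts than in kidneys in both genotypes, and Aldoa was higher by a smaller amount. In KO/HT against KO/KID, 7 of the 12 member probes were higher, 1 was lower and 4 were not called, and in WT/HT against WT/KID 7 were higher, 3 lower and 2 not called. Over all kept probes, 34.9% were higher and 30.2% lower in KO/HT than in KO/KID, and 35.9% were higher and 31.4% lower in WT/HT than in WT/KID, so that a call by itself is common between these organs and the size of a difference says more. The median difference of the member probes was 1.22 log2 in knockout and 1.11 log2 in wildtype mice, beside 0.027 and 0.025 log2 over all kept probes.

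**Figure D1:**
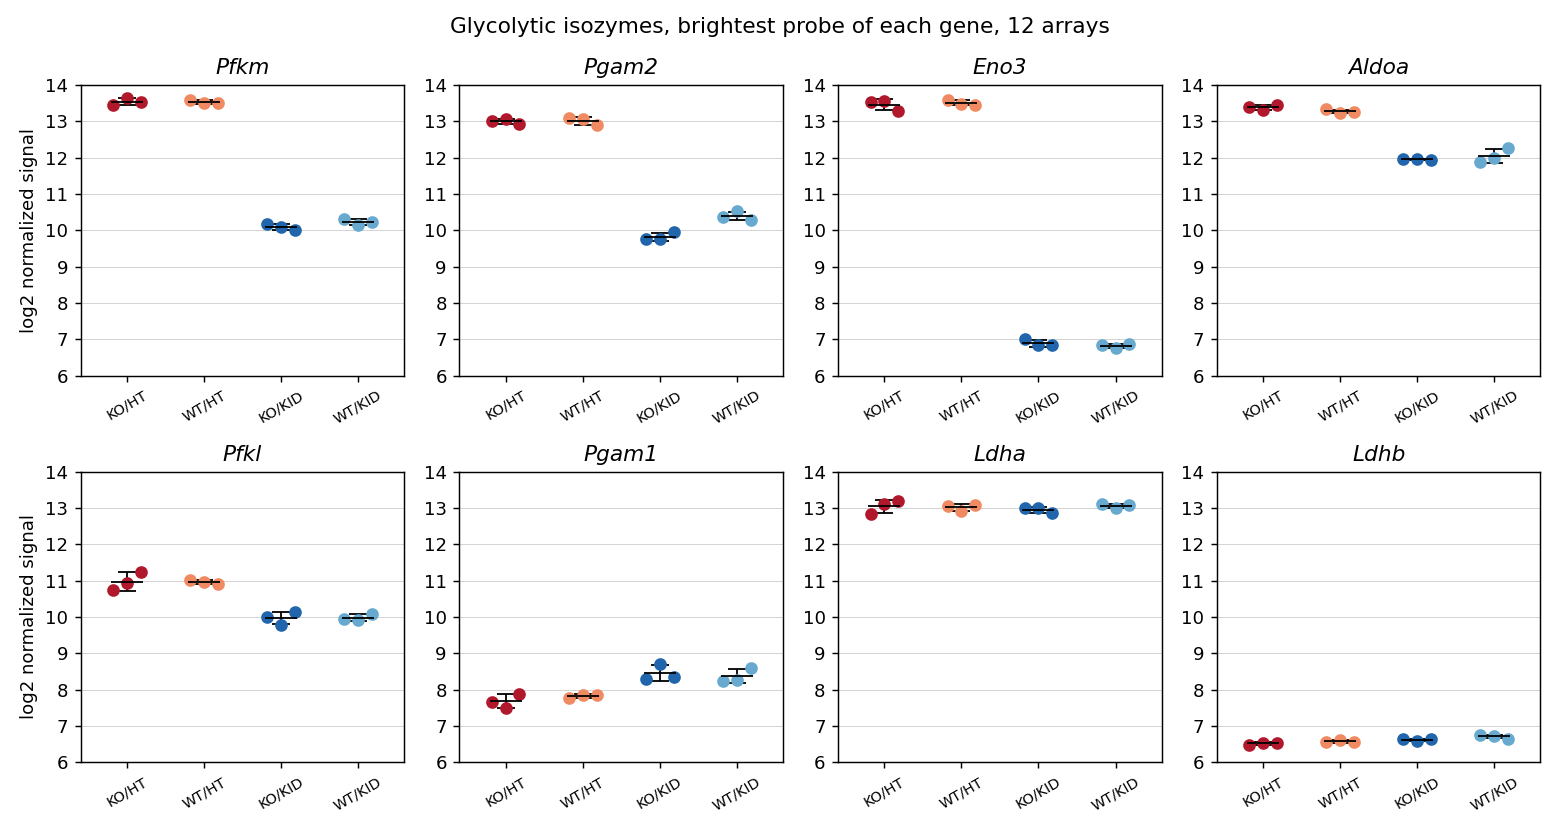
Log2 normalized signal of the brightest probe of each of the 8 genes measured, in KO/HT, WT/HT, KO/KID and WT/KID. Points are the 3 arrays of a group, the long bar is their mean and the whiskers are 1 SD. Pfkm, Pgam2, Eno3, Aldoa and Pfkl lie higher in all 6 hearts than in any kidney, Pgam1 lies lower, Ldha overlaps and Ldhb stays near the lower end of the scale, where probes are not detected. Heights of different genes are not comparable.

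Eno3, the muscle enolase, had the largest difference of the members. Its level was 13.53, 13.57 and 13.27 in KO/HT and 13.60, 13.47 and 13.46 in WT/HT, against 7.0, 6.83 and 6.84 in KO/KID and 6.83, 6.76 and 6.86 in WT/KID. The hearts lay far above every kidney, and the kidney levels lay just above the lowest level detected on a kidney array, 6.64 to 6.68, although Eno3 was detected in all 6 kidneys. The difference was 6.57 log2 (SE 0.08, adjusted p = 3.58e-15, 94.9-fold) in knockout and 6.69 log2 (SE 0.08, adjusted p = 2.94e-15, 104-fold) in wildtype mice. Since a signal near background cannot fall further, these folds depend on the background correction, and with neqc, which subtracts a modelled background, the differences were 7.95 and 8.20 log2.

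Pfkm, the muscle phosphofructokinase subunit, had a level of 13.45, 13.65 and 13.53 in KO/HT and 13.58, 13.50 and 13.50 in WT/HT, against 10.16, 10.10 and 10.003 in KO/KID and 10.30, 10.15 and 10.22 in WT/KID. The organs did not overlap, and within an organ the genotypes did. Pfkm was higher in hearts by 3.45 log2 in knockout mice (SE 0.07, adjusted p = 1.51e-13, 11-fold) and by 3.30 log2 in wildtype mice (SE 0.07, adjusted p = 2.31e-13, 9.87-fold). Its other probes gave 3.73 and 2.78 log2 in knockout and 3.61 and 3.12 log2 in wildtype mice, so that all 3 probes placed Pfkm higher in hearts, the dimmest with detection in only 2 of 6 kidneys.

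Pfkl codes for the subunit named for the liver, which is also made in many other tissues. Its level was 10.74, 10.93 and 11.25 in KO/HT and 11.02, 10.95 and 10.92 in WT/HT, against 10.002, 9.78 and 10.12 in KO/KID and 9.94, 9.92 and 10.08 in WT/KID. Pfkl, too, was thus higher in every heart than in any kidney, by 1.00 log2 (SE 0.12, adjusted p = 7.55e-06) in knockout and 0.98 log2 (SE 0.12, adjusted p = 8.72e-06) in wildtype mice. With arrays centred on their medians in place of quantile normalization, the differences were 0.42 log2 (adjusted p = 0.0348) and 0.53 log2 (adjusted p = 0.0121). Its second probe lay between 6.60 and 6.81 log2, near the lowest detected levels, and was not called between organs (0.09 log2, adjusted p = 0.212, in knockout and 0.01 log2, adjusted p = 0.91, in wildtype mice).

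Pgam2, the muscle phosphoglycerate mutase, had a level of 13.01, 13.06 and 12.92 in KO/HT and 13.09, 13.06 and 12.89 in WT/HT, against 9.75, 9.76 and 9.95 in KO/KID and 10.37, 10.52 and 10.28 in WT/KID. The hearts of both genotypes overlapped, whereas each KO/KID array lay below each WT/KID array. Pgam2 was higher in hearts by 3.17 log2 in knockout mice (SE 0.08, adjusted p = 2.47e-12, 9.02-fold) and by 2.62 log2 in wildtype mice (SE 0.08, adjusted p = 1.57e-11, 6.17-fold). It has 1 probe on the array, so no second probe bears on these values.

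Pgam1, the mutase of most other tissues, went the other way. Its level was 7.65, 7.50 and 7.89 in KO/HT and 7.77, 7.85 and 7.86 in WT/HT, against 8.30, 8.70 and 8.34 in KO/KID and 8.24, 8.27 and 8.58 in WT/KID. Every heart was lower than every kidney, by 0.77 log2 in knockout mice (a difference of -0.77, SE 0.12, adjusted p = 0.000145) and 0.54 log2 in wildtype mice (a difference of -0.54, SE 0.12, adjusted p = 0.00212). With median centring the differences were larger, at -1.25 and -0.84 log2. The dimmer second probe was at least 1.21-fold lower in WT/HT, where no array detected it, than in WT/KID (adjusted p = 0.000891), and its difference of -0.15 log2 between KO/HT and KO/KID was not called (adjusted p = 0.0607).

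Aldoa, the aldolase of muscle that many other tissues also make, had a level of 13.40, 13.31 and 13.45 in KO/HT and 13.33, 13.23 and 13.26 in WT/HT, against 11.96, 11.97 and 11.92 in KO/KID and 11.88, 11.98 and 12.26 in WT/KID. The lowest heart, at 13.23, lay above the highest kidney, at 12.26. The difference was 1.44 log2 (SE 0.08, adjusted p = 8.5e-09, 2.71-fold) in knockout and 1.23 log2 (SE 0.08, adjusted p = 3.66e-08, 2.35-fold) in wildtype mice, smaller than those of Eno3, Pfkm and Pgam2.

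Ldha, the M subunit of lactate dehydrogenase, overlapped between the organs. Its level was 12.84, 13.10 and 13.18 in KO/HT and 13.06, 12.91 and 13.08 in WT/HT, against 12.996, 13.002 and 12.86 in KO/KID and 13.10, 12.996 and 13.08 in WT/KID. Neither difference was called, at 0.09 log2 (95% interval -0.09 to 0.28, adjusted p = 0.371) in knockout and -0.05 log2 (95% interval -0.23 to 0.14, adjusted p = 0.655) in wildtype mice. Without KO/HT replicate 1, the lowest of the hearts, the knockout difference was 0.19 log2 and passed the threshold (adjusted p = 0.0405).

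Ldhb, the H subunit, is known as the main lactate dehydrogenase subunit of heart muscle, but its only probe, which the annotation ties to a single cDNA clone and not to a RefSeq mRNA, was detected in 2 of 12 arrays, both WT/KID. Its level was 6.48, 6.54 and 6.53 in KO/HT and 6.54, 6.61 and 6.57 in WT/HT, against 6.64, 6.59 and 6.64 in KO/KID and 6.75, 6.73 and 6.65 in WT/KID. These levels lie near or below the lowest detected ones, so no fold is given and the probe says little about Ldhb mRNA. The difference was -0.10 log2 in knockout mice (adjusted p = 0.0819) and -0.13 log2 in wildtype mice (adjusted p = 0.0248), and the second lost its call when any of 4 of the 6 arrays was left out (highest adjusted p = 0.0849).

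Organ and sex run together in these arrays, and KO/HT replicate 1 is the one heart with the Y-linked transcript of the kidneys. With it as the only knockout heart, the difference from KO/KID was 6.63 log2 for Eno3, 3.32 for Pfkm, 3.17 for Pgam2, 1.43 for Aldoa, 0.77 for Pfkl and -0.81 for Pgam1. Each of these 6 genes kept its direction. This single array gives no spread among hearts with that transcript, so no test is given for it. Within this array, Pgam2 minus Pgam1 exceeded the KO/KID mean by 3.99 log2 and Pfkm minus Pfkl by 2.59 log2. No such array exists for the wildtype hearts, where organ and sex cannot be told apart.

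**Figure D2:**
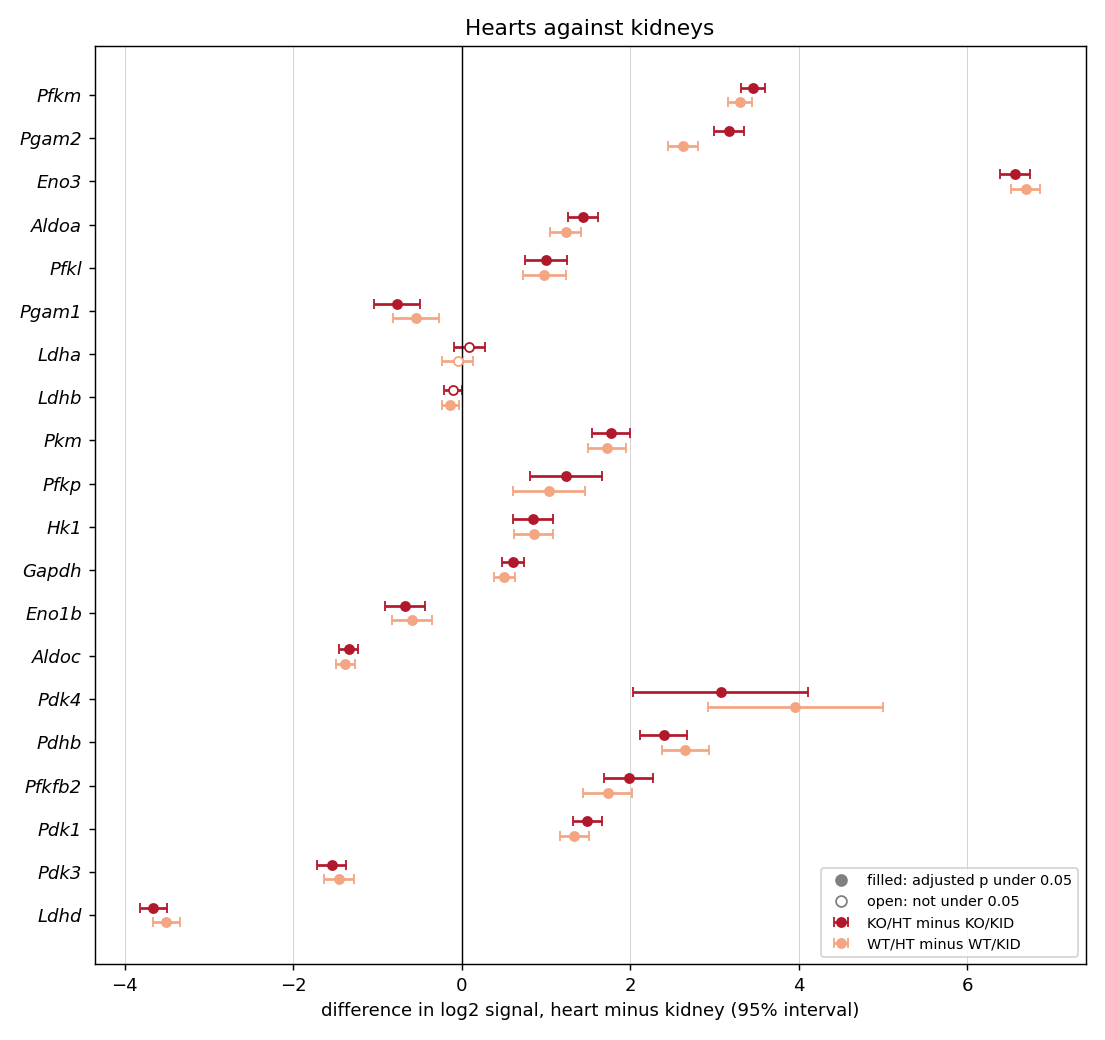
Difference in log2 signal between hearts and kidneys, KO/HT minus KO/KID above WT/HT minus WT/KID for each gene, with 95% intervals of the limma fit. The 8 members come first, then named genes of the other glycolytic steps and of pyruvate, lactate and phosphofructokinase control. Filled points passed an adjusted p of 0.05. Eno3 lies farthest to the right, at 6.57 and 6.69, and Ldhd farthest to the left, at -3.66 and -3.50.

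Set against its partner within each array, the muscle mutase and the muscle phosphofructokinase subunit stood higher in hearts than in kidneys. The zero of such a difference has no meaning, because the 2 probes differ in brightness, and only its change between groups is read. There were 5 pairs, of which 2 were added after the values were seen and are described without a test between organs. The others were compared with an exact two-sided permutation of the organ labels within genotype (400 arrangements, smallest possible p = 0.005). Any pair reaches that p when, in both genotypes, hearts lie on the same side of kidneys without overlap. These genes, too, were chosen with earlier results of these data known, so that p is no independent support. Pgam2 minus Pgam1 was 5.36, 5.55 and 5.03 in KO/HT and 5.32, 5.21 and 5.03 in WT/HT, against 1.45, 1.07 and 1.61 in KO/KID and 2.13, 2.25 and 1.69 in WT/KID, a difference of 3.55 log2 between hearts and kidneys (exact p = 0.005). Pfkm minus Pfkl was 2.71, 2.72 and 2.29 in KO/HT and 2.57, 2.55 and 2.58 in WT/HT, against 0.16, 0.32 and -0.12 in KO/KID and 0.36, 0.24 and 0.14 in WT/KID. The organs did not overlap for this pair either, with a difference of 2.39 log2 (exact p = 0.005), which is smaller than that of Pfkm alone because Pfkl was also higher in hearts.

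Since Eno1 has no probe under its name, Eno1b, a copy of Eno1, was set against Eno3, and Aldoc, the aldolase of brain, against Aldoa, and these are the pairs chosen after the values were seen. Whether the Eno1b probe also binds Eno1 mRNA was not tested. Eno3 minus Eno1b lay between 6.36 and 6.86 in the hearts and between -0.87 and -0.43 in the kidneys, and hearts exceeded kidneys by 7.26 log2. Aldoa minus Aldoc lay between 6.79 and 6.96 in the hearts and between 4.01 and 4.43 in the kidneys, but Aldoc was not detected in any heart, so only a bound can be given. With levels under the lowest detected level of an array set to it, hearts exceeded kidneys by at least 2.45 log2, against 2.70 log2 without that floor. The bound holds only for the signals as normalized here. Under other processing, without the floor, the difference was 2.18 log2 on the authors' normalized values and 4.35 log2 with neqc. For Ldhb minus Ldha the hearts, from -6.65 to -6.29, overlapped the kidneys, from -6.43 to -6.22, with a difference of -0.14 log2 (exact p = 0.06), and the Ldhb probe was detected in only 2 of 12 arrays.

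**Figure D3:**
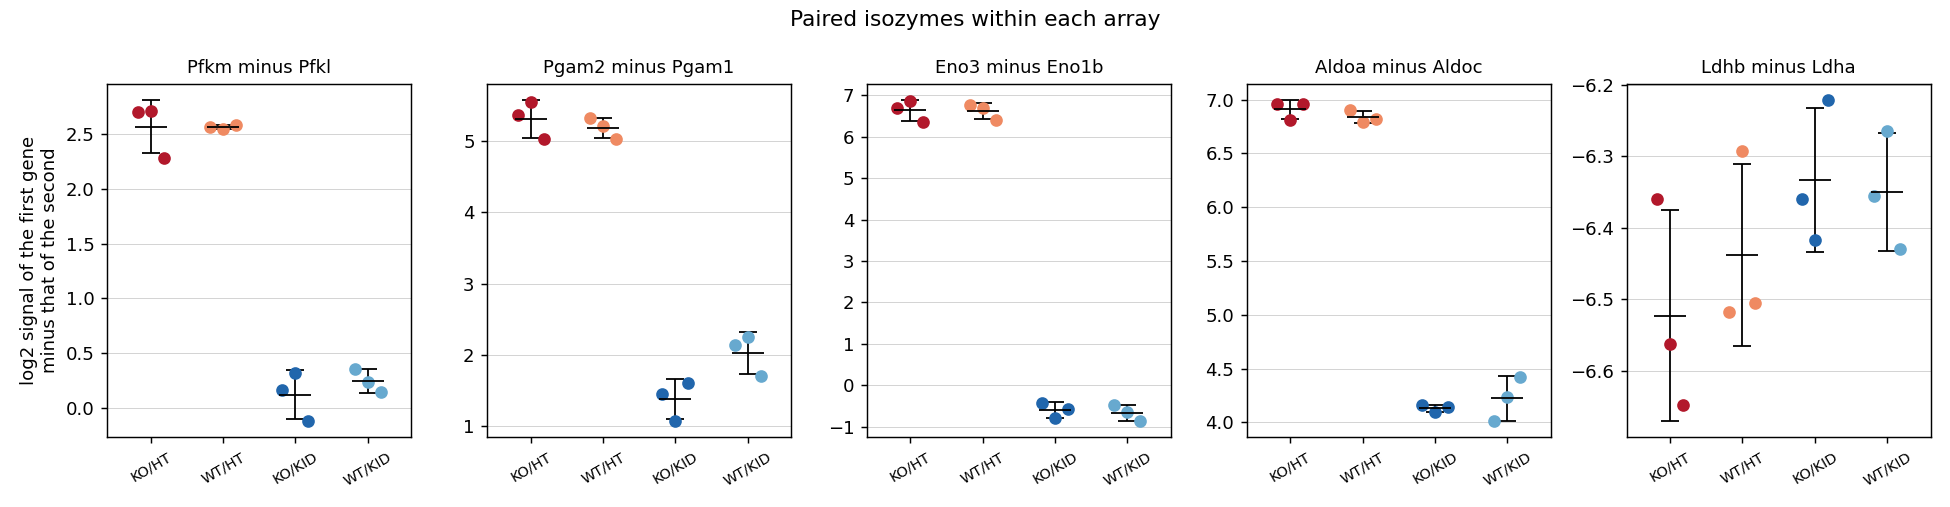
Log2 signal of the first gene minus that of the second within each array, for 5 isozyme pairs in KO/HT, WT/HT, KO/KID and WT/KID, each panel with its own axis. Points are arrays, the long bar is the mean of 3 and the whiskers are 1 SD. The hearts lie above the kidneys in the first 4 pairs and overlap them for Ldhb minus Ldha, and only for Pgam2 minus Pgam1 do the KO/KID arrays all lie below the WT/KID arrays.

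Between the genotypes, 1 member was called in the kidneys and none in the hearts, and no member was called for the interaction given below. In KO/KID against WT/KID, 1 of the 12 member probes was called, lower, against 0.303% of kept probes called lower and 0.546% called in either direction. It was the Pgam2 probe, at a mean of 9.82 ± 0.11 log2 in KO/KID and 10.39 ± 0.12 log2 in WT/KID (SD, n = 3 each). The difference was -0.57 log2 (SE 0.08, 95% interval -0.74 to -0.39, adjusted p = 0.00733), or 0.675-fold, and KO/KID was lower in 3 of 3 arrays. With each kidney left out in turn, it stayed between -0.63 and -0.50 log2, with an adjusted p of 0.0386 or less. With median centring it was -0.35 log2 (adjusted p = 0.0492). With only the kidney arrays in the fit the adjusted p was 0.0621, and with the methods' t-test, which they name for measurements in general and not for the arrays, it was 0.39 after adjustment, so the call used the spread estimated over hearts and kidneys together.

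The other members had no call between the kidneys. Pfkm was nearest, at -0.14 log2 (95% interval -0.28 to 0.01, adjusted p = 0.524), and the other 6 main probes had differences from -0.11 log2 for Ldha to 0.08 log2 for Pgam1, with intervals that reach at most 0.36 log2 from 0. These intervals leave room for changes of that size. Of the markers of skeletal muscle, in which Pgam2 is highly expressed, the main probes of Mylpf, Ckm and Atp2a1 were detected in no kidney, that of Tnni2 in 1 KO/KID and 1 WT/KID array and that of Actn3 in 1 KO/KID and 2 WT/KID arrays, and none of 6 measured was called between KO/KID and WT/KID. Pvalb, a calcium-binding protein of fast muscle that the distal tubule also makes, was detected in all kidneys with a difference of -0.31 log2 (adjusted p = 0.234). No heart muscle or tubule marker was called between the kidneys, and all kidneys had Eif2s3y and none had Xist.

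In KO/HT against WT/HT, 0 of the 12 member probes were called, where 0.0657% of kept probes were. At an unadjusted limma p under 0.05 there was 1, the dimmest Pfkm probe, at -0.35 log2 (limma's adjusted p = 0.562), where 8.03% of kept probes passed, and the methods' t-test called 0 of 12 before and after adjustment. The main probes differed by 0.12 log2 for Aldoa (95% interval -0.06 to 0.30), -0.15 log2 for Pgam1 (-0.42 to 0.12), -0.05 log2 for Eno3 (-0.23 to 0.13), -0.02 log2 for Pgam2 (-0.19 to 0.16) and 0.01 log2 for Pfkm (-0.13 to 0.16). Without KO/HT replicate 3 none was called either, and the differences of Aldoa, Pgam1, Eno3, Pgam2 and Pfkm were 0.08, -0.25, 0.040, 0.021 and 0.017 log2. Only KO/HT replicate 1 among the hearts had Eif2s3y and lacked Xist. Sex as read from these transcripts thus differs in part between KO/HT and WT/HT, which also enters the interaction below. With each array left out in turn, replicate 1 included, 0 member probes were called between the hearts and 0 for the interaction.

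**Figure D4:**
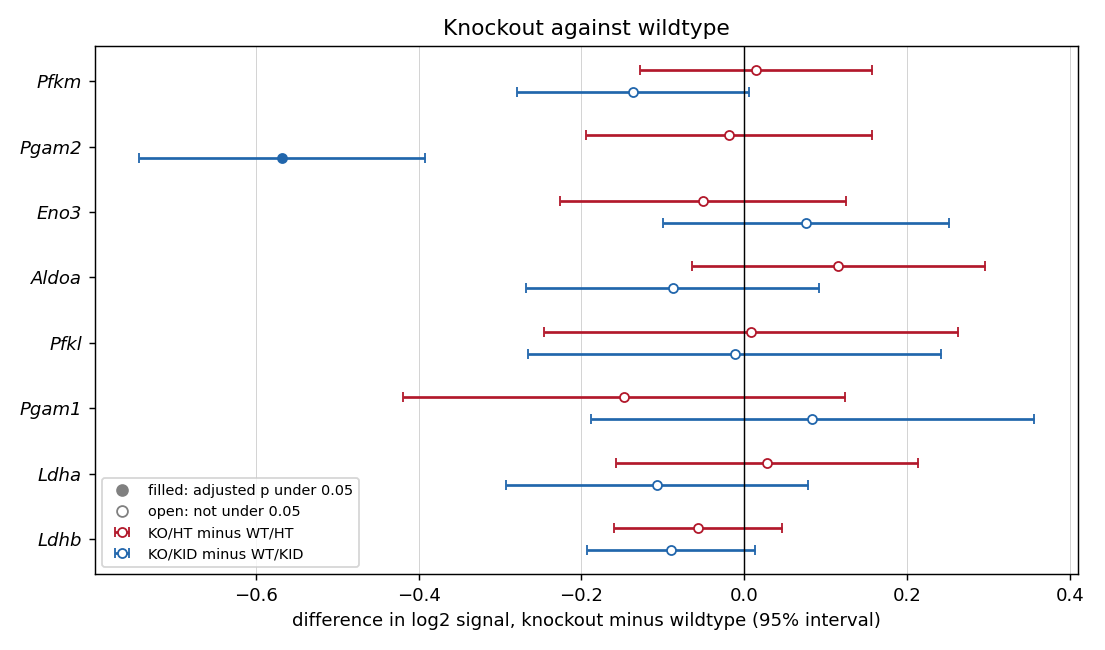
Difference in log2 signal between knockout and wildtype for the 8 genes measured, KO/HT minus WT/HT above KO/KID minus WT/KID, with 95% intervals of the limma fit. Filled points passed an adjusted p of 0.05. Pgam2 in the kidneys, at -0.57, is the only filled point, and the interval of each other difference includes 0.

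The difference between the organs in the effect of genotype was tested as an interaction, for which 0 of the 12 member probes were called by limma, where 0.101% of kept probes were. Pgam2 was the only member with an unadjusted p under 0.05, with a difference between KO/HT and WT/HT that exceeded that between KO/KID and WT/KID by 0.55 log2 (95% interval 0.30 to 0.80, limma's adjusted p = 0.135). That the Pgam2 change was confined to the kidneys is therefore not shown after adjustment. For Pgam2 minus Pgam1 the same difference was 0.78 log2 (exact two-sided permutation of genotype within organ, p = 0.045, 1 of 5 pairs tested, unadjusted). That permutation assumes no effect of genotype in either organ, so a low p does not show that the effects differ between organs. Within the kidneys this pair was lower in knockout by 0.65 log2 (a difference of -0.65, exact p = 0.1, the smallest that 3 against 3 arrays allow), and within the hearts the difference was 0.13 log2 (exact p = 0.5). By the same permutation of genotype within organ, the other 4 pairs had p-values from 0.235 to 0.83.

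Among the other genes of glycolysis, calls went in both directions. Of 22 other glycolytic genes listed, 13 had a kept probe, and in WT/HT against WT/KID 4 were higher, 5 lower and 4 not called, with a median difference of 0.0080 log2, where 36.1% of all genes were higher and 33.9% lower. In KO/HT against KO/KID 6 were higher, 4 lower and 3 not called, where 35.4% were higher and 33.0% lower. This tally was not stable. With KO/HT replicate 1 as the only knockout heart, the difference of Hk3 was 0.13 log2, against 0.23 log2 with all 3, and that of Tpi1 -0.22 against -0.08 log2. Those of Eno2 and Adpgk were 0.06 and -0.34 log2 with that heart alone. With median centring the tally was 5 higher and 6 lower, where 19.4% of all genes were higher and 50.4% lower. Pkm, the muscle pyruvate kinase of the last step, lay between 12.33 and 12.80 in the hearts and between 10.60 and 10.96 in the kidneys, higher by 1.77 log2 in knockout (adjusted p = 1.02e-08) and 1.73 log2 in wildtype mice (adjusted p = 1.27e-08). Pfkp, the platelet phosphofructokinase subunit, was higher in hearts by 1.24 and 1.04 log2 in knockout and wildtype mice, Hk1, a hexokinase, by 0.84 and 0.85 log2, and Gapdh, which oxidises glyceraldehyde 3-phosphate, by 0.61 and 0.51 log2. All 3 phosphofructokinase subunits were thus higher in hearts, by unequal amounts.

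Genes of other isozymes were lower in hearts. Aldoc was detected in all kidneys, at 7.74 to 7.87 log2, and in no heart, and was at least 2.18-fold lower in KO/HT than in KO/KID (adjusted p = 1.13e-10) and at least 2.14-fold lower in WT/HT than in WT/KID (adjusted p = 8.39e-11). Eno1b had differences of -0.67 log2 in knockout (adjusted p = 0.000144) and -0.59 log2 in wildtype mice (adjusted p = 0.000387). Pklr, the pyruvate kinase of liver and kidney tubule, and Hkdc1, a hexokinase relative, were also lower in the hearts, where no array detected them, by at least 1.02-fold and at least 1.08-fold in knockout mice. Between genotypes, limma called none of the 13 genes in the hearts (1 at an unadjusted p under 0.05) and none in the kidneys (0 at that p), where 0.0800% and 0.320% of all genes were called. With median centring Aldoc was called higher in KO/KID than in WT/KID, at 0.22 log2 (adjusted p = 0.0415), where 12.3% of all genes were called higher.

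Genes that decide what becomes of pyruvate and how phosphofructokinase is driven were called in both directions. Of 17 listed, 11 had a kept probe, and 7 were higher and 2 lower in hearts in each genotype, where 35.4% of all genes were higher and 33.0% lower in knockout and 36.1% and 33.9% in wildtype mice. With median centring Pdk2 lost its call and Pfkfb4 was called lower in each genotype. With KO/HT replicate 1 as the only knockout heart, the difference of Slc16a3 from KO/KID was 0.20 log2. Pdk4, a kinase that shuts off pyruvate dehydrogenase, lay between 10.21 and 12.42 in the hearts and between 7.35 and 8.42 in the kidneys, higher by 3.07 log2 in knockout (SE 0.48, adjusted p = 1e-04) and 3.96 log2 in wildtype mice (SE 0.48, adjusted p = 1.02e-05), with the widest spread of the genes named. Pdhb, a subunit of pyruvate dehydrogenase, was higher in hearts by 2.40 and 2.66 log2 in knockout and wildtype mice. In wildtype mice its second probe gave 1.95 log2. The dimmest, near the lowest detected levels, gave -0.06 log2 and was not called (limma's adjusted p = 0.53). Pfkfb2, which makes the activator of phosphofructokinase and is known from heart, was higher by 1.98 and 1.73 log2 in knockout and wildtype mice. Pdk1 was higher by 1.49 and 1.34 log2. Ldhd, which oxidises D-lactate, lay between 8.34 and 8.62 in the hearts and between 12.01 and 12.23 in the kidneys, with differences of -3.66 log2 in knockout and -3.50 log2 in wildtype mice. Pdk3 was lower in the hearts by a difference of -1.54 and -1.46 log2. None of the 11 was called between genotypes by limma, where 0.0800% of all genes were called in the hearts and 0.320% in the kidneys. At an unadjusted limma p under 0.05 there was 1 in the hearts and 1 in the kidneys, where 8.34% and 10.3% of all genes passed. With median centring Pdha1 (0.45 log2, adjusted p = 0.0441) and Pdk3 (0.40 log2, adjusted p = 0.0125) were called higher in KO/KID than in WT/KID, where 12.3% of all genes were called higher.

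The genes whose levels ran most like a member over the 12 arrays are given as a description, since the organs set most of such a correlation. Eno3 ran with Popdc2, Ckm and Hrc (r = 0.9998 for each), Pfkm with Asb2, Fndc5 and Actn2 (r = 0.9992, 0.9992 and 0.9991), and Pgam2 with Mgst3, C030006K11Rik and Pptc7 (r = 0.9977, 0.9943 and 0.9943). Ckm is the muscle creatine kinase and Actn2 an actin crosslinker of the sarcomere. Aldoa was nearest to H4c1 (r = 0.995), Pfkl to Selenow (r = 0.9917) and Pgam1 to Eno1b (r = 0.9691). Ldha, with no organ difference called, had no gene above r = 0.8196, that of Lsm1, and Ldhb was nearest to Spns1 (r = 0.9631).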

How the data were processed

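Total RNA of 12 hearts and kidneys was hybridised to Illumina bead arrays. The authors deposited a probe intensity per array, exported without normalization between arrays, with a detection p-value, and in another table normalized intensity values made, per the labels and the paper's methods, with lumi (version not given in the sources used here) and quantile normalization. These served as an alternative. Here the deposited intensities were quantile normalized over 12 arrays and log2 transformed, and a probe was kept if any array gave it a detection p-value under 0.01. The fits were made with limma (3.58.1) and tables handled with data.table (1.17.8), both in R (4.3.3). Every array was part of 1 fit with a mean per group (8 residual and 3.91 prior degrees of freedom), and p-values were adjusted by Benjamini and Hochberg's method over 19780 probes. The number of arrays limits the precision, and where a probe was not detected in a group the fold is a bound from the lowest detected signal per array. That a group's arrays come from separate mice is stated for 3 mice per genotype, yet in 5 of 6 pairs of a heart and a kidney with the same number in the labels, Xist and Eif2s3y differed between the organs, so equal numbers were not treated as pairs.

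The members and lists were chosen with earlier results of these data known. Genes named are the 8 members, up to 4 with the largest rise and 4 with the largest fall per list in wildtype hearts against kidneys, and the 3 genes most like each member. Of the kept probes, 17073 had 1 symbol, 9 several and 2698 none here. The 5 glycolytic genes and 3 others whose probes were not kept, and the 4 and 3 with no probe under their name, were not analysed here. The alternatives were neqc (offset 16), median centring, the authors' values, other detection filters, only the groups compared, blocks, the methods' t-test (named there for measurements in general, where the arrays were fitted with limma), trend and robust moderation, and each array left out. After seeing the data, single knockout hearts and the Eno1b and Aldoc pairs were added. The fit was tested on simulated data. Some results are not reported here.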

Additional observations from a re-analysis of the deposited data

Results flagged for a closer look

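For Pgam2 minus Pgam1, knockout minus wildtype was 0.78 log2 larger in hearts than in kidneys (exact two-sided permutation of genotype within organ, p = 0.045, 1 of 5 pairs tested, unadjusted). That permutation assumes no effect of genotype in either organ, so its p does not test whether the 2 effects differ. The pair's mean was 5.32 ± 0.27 in KO/HT and 5.19 ± 0.14 in WT/HT, and 1.38 ± 0.28 in KO/KID and 2.03 ± 0.29 in WT/KID (SD, n = 3 each). For Pgam2 alone, limma's interaction had an adjusted p of 0.135 over all kept probes, and of 0.102 to 0.319 over its 21 alternatives. No group has over 3 arrays, so single arrays were not tested as outliers.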

How the results depend on the processing

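The count of member probes called stayed within 1.5 times in every comparison under every alternative, except between the kidneys, where the single call (Pgam2) was lost, leaving 0, with only the groups compared and with the methods' t-test after adjustment. With each array left out, the count was 0 for the hearts, 1 for the kidneys, 9 to 10 for the wildtype organs, 8 to 10 for the knockout organs and 0 for the interaction. Samples of equal replicate number in the groups compared did not deviate together (r = -0.203 to 0.207). Such values cannot show whether a heart and a kidney came from the same mouse. With the replicate block, 0, 1, 10, 8 and 0 member probes were called, as without it, and over all kept probes 8 against 13 between the hearts, 82 against 108 between the kidneys and 14 against 20 for the interaction.

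Pfkm minus Pfkl (2.33 to 2.81 log2) and Pgam2 minus Pgam1 (3.34 to 3.89) kept their direction and an exact p of 0.005 under all 16 alternatives. That p shows only that the organs stayed apart, since the genes were chosen with earlier results known. Eno3 minus Eno1b (6.32 to 9.39) and Aldoa minus Aldoc (2.18 to 4.35) kept their direction. Ldhb minus Ldha did not: it was -0.40 with neqc (exact p = 0.01), 0.093 with median centring and -0.18 to -0.11 with each array left out. The pair Eno3 minus Eno1 was not run.

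Median centring moved the median of all kept probes by 0.12 log2 between the kidneys and -0.14 log2 between the knockout organs, and the share of calls that were higher to 96.5% against 44.4% between the kidneys, 29.7% against 53.6% between the knockout organs and 37.5% against 53.3% between the wildtype organs. There Pgam2 was lower in KO/KID by a difference of -0.35 log2 (adjusted p = 0.0492). Signs of uncalled members turned under it between the kidneys (Aldoa 0.12, Pfkm 0.091, Pfkl 0.20, Ldha 0.072), between the hearts (Pgam2 0.040), between the knockout organs (Ldha -0.22) and in the interaction (Pfkm -0.052, Pfkl -0.11). With single knockout hearts, Ldha was -0.11 between the knockout organs, and Pfkl -0.034, Pgam2 0.041 and Eno3 0.057 between the hearts.

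With each array left out, uncalled members ranged across 0, between the hearts Pfkm (-0.036 to 0.058), Pfkl (-0.13 to 0.12), Pgam2 (-0.080 to 0.021), Eno3 (-0.10 to 0.040) and Ldha (-0.039 to 0.12), between the kidneys Aldoa (-0.17 to 0.022), Pfkl (-0.091 to 0.082) and Pgam1 (-0.042 to 0.19), between the wildtype organs Ldha (-0.078 to 0.011), and in the interaction Pfkl (-0.12 to 0.13). The cause of these changes was not tested. Hearts against kidneys, Aldoa, Pfkm, Pfkl, Pgam1, Pgam2 and Eno3 kept direction and call under each alternative run, though median centring moved Pfkl and Pgam1 by over 1.5 times. Signals near background, those of Ldhb and of Eno3 in kidneys, limit the folds.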
